A study of Mus musculus with 12 samples.

Results

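The peaks described here are those whose nearest gene, in the deposited tables, was 1 of 8 transcription factor genes of the microglial lineage: Spi1, Irf8, Mef2a, Mef2c, Runx1, Cebpa, Cebpb and Maf. All peaks with such a gene name were taken, whatever their values, which gave 441 of 281974 peaks. There were 327 of 91770 in the microglia table, 79 of 107627 in the table of NeuN+ nuclei and 35 of 82577 in that of Olig2+ nuclei. A peak with its distance to the nearest start site within 1000 bp is called a start-site peak, and any other a distal peak. The microglia peaks were 27 start-site and 300 distal peaks, and each of the 8 genes had both kinds. The gene name records only which start site is nearest, and not which gene a peak acts on.

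Open chromatin had been assayed by ATAC-seq, where a transposase cuts and tags accessible DNA, in forebrain of C57BL/6 mice aged 4 months. Wild-type (WT) mice were set against SgshKO mice, which the labels give as the knockout of Sgsh, the gene of a lysosomal sulfatase that degrades heparan sulfate. The labels do not describe the allele, and they give neither sex nor animal number. Microglia were live cells sorted as CD11b+, CX3CR1+ and low for CD45. Nuclei were lightly fixed and sorted for NeuN, without OLIG2 or PU.1, or for OLIG2, without NeuN or PU.1. Each of the 6 groups (3 sorts, each WT and SgshKO) held 2 libraries, so n = 2 per group throughout. Nothing says that the 2 came from separate animals, so the tests may measure only technical spread.

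PU.1, the product of Spi1, is an ETS-family factor that opens chromatin at macrophage enhancers and is required for microglia to form. IRF8 binds composite sites with it, RUNX1 and the C/EBP factors act in myeloid development, and MEF2 and MAF factors shape the enhancers of resident brain macrophages. In neurons Mef2a and Mef2c are known for activity-dependent transcription. Which programme their peaks there belong to was not tested.

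Library totals were 10771659 to 11804222 tags in microglia, 14326703 to 17706971 in NeuN+ nuclei and 15044194 to 19555924 in Olig2+ nuclei. Peaks held 55.8% and 48.7% of the tags of WT microglia and 67.4% and 53.7% of those of SgshKO microglia. These shares were 26.7% and 25.9% in WT against 21.5% and 21.2% in SgshKO NeuN+ nuclei, and 30.9% to 31.8% in Olig2+ nuclei. Of 10 microglia markers, 9 had a start-site peak in the microglia table. All 10 neuron markers had one in NeuN+ nuclei, and all 10 oligodendrocyte markers in Olig2+ nuclei. The SgshKO microglia libraries differed from each other more than any other pair, with a chi-square of 9.84 per peak between them against 3.06 for WT microglia and 1.18 to 1.41 in the nuclei.

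RefSeq promoter windows (250 bases before to 50 after a start, assembly GRCm38.p6, the same build as the files' mm10) were found for 6 of the 8 genes, as 10 windows. Spi1 and Maf had no entry. The sequences below run 5′ to 3′ on the gene's strand, and capitals mark matches to the motifs searched. They are shown because the difference between sorts lay at the Cebpa and Cebpb starts, and because the other windows hold matches to a member's own motif or to an E-box.
Cebpa promoter, chr7:35119043-35119292, plus strand: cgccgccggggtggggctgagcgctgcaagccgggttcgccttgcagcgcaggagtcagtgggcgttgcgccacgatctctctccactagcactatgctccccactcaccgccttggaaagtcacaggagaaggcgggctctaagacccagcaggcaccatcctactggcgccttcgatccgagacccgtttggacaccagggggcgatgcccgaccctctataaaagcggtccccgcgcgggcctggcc
Cebpb promoter, chr2:167688665-167688914, plus strand: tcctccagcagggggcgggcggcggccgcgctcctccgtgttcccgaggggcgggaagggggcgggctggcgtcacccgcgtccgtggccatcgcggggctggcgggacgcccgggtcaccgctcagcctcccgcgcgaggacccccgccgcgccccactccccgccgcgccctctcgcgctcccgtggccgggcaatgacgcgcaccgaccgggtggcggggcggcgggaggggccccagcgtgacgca
Runx1 upstream promoter, chr16:92826075-92826324, minus strand: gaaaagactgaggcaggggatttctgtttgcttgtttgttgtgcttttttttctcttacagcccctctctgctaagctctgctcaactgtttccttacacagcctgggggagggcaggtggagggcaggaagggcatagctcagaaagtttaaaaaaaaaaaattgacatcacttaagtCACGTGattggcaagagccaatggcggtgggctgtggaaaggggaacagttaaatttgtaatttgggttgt
Runx1 upstream promoter, RUNX matches, chr16:92826029-92826052, minus strand: taaacAACCACAgAACCACAagtt
Mef2a start, chr7:67372844-67372888, minus strand: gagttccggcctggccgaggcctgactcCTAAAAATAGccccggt

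On both strands, the searches were for PU.1 (GAGGAAGT), IRF (GAAA, any 2 bases, GAAA), MEF2 (CTA, any 4 bases, TAG), RUNX (TGTGGTT), C/EBP (TTGCNNAA), a MAF half-site (TGCTGA), AP-1 (TGANTCA) and the E-box CACGTG. Distinct motifs could overlap, and a match is a description of letters only. The MEF2 letters were found at 1 member window, that of Mef2a, from base -2 to base 8 around its start, and in 3.69% of all 32851 windows. The RUNX letters were found at 1 member window, the upstream Runx1 promoter, at bases 28 to 34 and 36 to 42 after the start, and in 5.27% of all windows. The same Runx1 window held CACGTG at bases -71 to -66, as did 7.15% of all windows. The MAF half-site was in 2 of the 10 member windows (Irf8 and Mef2c) and 19.5% of all, and AP-1 in 1 (Mef2c) and 7.81% of all. No member window held the PU.1, IRF or C/EBP letters, which 3.2%, 3.44% and 10.8% of all windows held. The printed Cebpa and Cebpb stretches thus carry no capitals. Of the upstream Runx1 window, 203 bases lay in a microglia peak, whose 4 libraries held 105 and 100.8 normalized tags in WT and 72.7 and 107 in SgshKO. A normalized tag is a read scaled to a library of 10000000 tags. The genotypes overlapped at this peak (log2 change -0.22 ± 0.31 SE). Another 70 bases lay in a second microglia peak, 93 bp from the start, which holds both RUNX matches and did not change detectably either (log2 change -0.17 ± 0.30).

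In WT microglia the start sites of all 8 genes were open, and none of their start-site peaks passed the test between genotypes. Of the 27 start-site peaks, 0 were called by limma at an adjusted p under 0.05 over the whole table, where 9.8% of all 23806 start-site peaks were called, 8.59% higher and 1.2% lower. At an unadjusted p under 0.05, 1 of the 27 passed, beside 5701 of all 23806. The changes of 23 of the 27 lay below 0, with a median of -0.28, against a median of 0.03 over all start-site peaks. Both SgshKO libraries lay on 1 side of both WT libraries at 13 of the 27 peaks, on the lower side at 12, where 57.8% of all start-site peaks were so separated and 25.1% on the lower side. With tags scaled to those inside peaks, 4 of the 27 were called lower (Cebpa at -705 bp, Irf8 at -369 bp, Mef2c at -82 bp and Runx1 at -119 bp), beside 7.24% of all start-site peaks. With quantile normalization 3 were (Spi1 at 96 bp, Mef2a at -397 bp and Runx1 at -119 bp), beside 2.98%. In bulk sorts, fewer cells with an open site and a less open site per cell cannot be told apart.

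The leading start-site peaks, meaning the one with the largest mean signal of each gene, were compared per 100 bp of peak. In WT microglia the order was Mef2a (183 normalized tags per 100 bp), Cebpa (166), Spi1 (133), Runx1 (91.5), Cebpb (54.0), Irf8 (51.3), Mef2c (45.3) and Maf (43.4). The WT libraries of neighbours in that order overlapped for Mef2a and Cebpa, for Cebpa and Spi1, for Cebpb and Irf8, for Irf8 and Mef2c and for Mef2c and Maf. Spi1 and Runx1 did not overlap, nor did Runx1 and Cebpb. These levels are descriptions, and no test between genes was made.

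**Figure D1:**
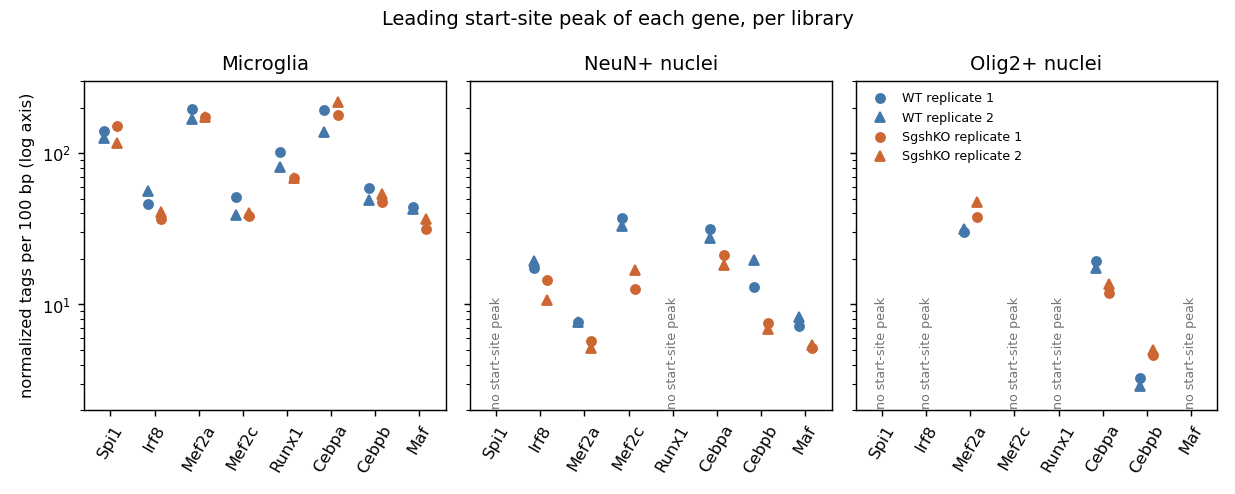
Normalized tags per 100 bp (log axis) in the leading start-site peak of each gene, with 1 point per library, for microglia, NeuN+ nuclei and Olig2+ nuclei; genes without a start-site peak in a table are marked. In microglia the WT means run from 43.4 for Maf to 183 for Mef2a, and Spi1 and Runx1 have no start-site peak in either nuclei table. A difference of level between microglia and nuclei cannot be told apart from their preparation.

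At the Spi1 start (chr2:91096636-91096912, 96 bp downstream of it) the libraries held 386 and 349 normalized tags in WT and 419 and 321 in SgshKO. The SgshKO libraries enclosed the WT ones. The log2 change was 0.00 ± 0.26 (SE), with a 95% confidence interval of -0.52 to 0.52 (limma adjusted p = 0.999). Quantile normalization gave -0.52 (limma adjusted p = 0.0398). The strongest distal Spi1 peak, 10141 bp upstream, was as high as the start itself, with 372 and 302 normalized tags in WT and 407 and 330 in SgshKO (log2 change 0.13 ± 0.26). The 8 peaks from 13113 to 3600 bp upstream, on the side where Spi1 has a known upstream regulatory element in myeloid cells, had changes from -0.86 to 0.33 and none was called. The smallest p of the 14 Spi1 peaks belonged to an intron 2 site at 4856 bp (60.5 and 45.8 in WT, 24.2 and 23.2 in SgshKO, log2 change -1.12 ± 0.38, limma adjusted p = 0.0642). The groups were apart there, as at 48.8% of all microglia distal peaks, and the call depended on the setting. Its limma adjusted p was 0.0108 with tags scaled to those inside peaks, 0.0273 with median-of-ratios scaling, 0.0276 with quantile normalization and 0.00857 with the replicate block, and edgeR gave an adjusted p of 0.0182. It was 0.0109 and 0.0217 without the first or second SgshKO library, but 0.739 and 0.588 without the first or second WT library, and DESeq2 gave 0.137.

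Irf8, whose product partners PU.1, had 108 and 133 normalized tags at its leading start-site peak in WT and 86.6 and 95.6 in SgshKO. Both SgshKO libraries were below both WT libraries, with a log2 change of -0.39 ± 0.30 and an adjusted p of 0.475 by limma. Of its 47 distal peaks 2 rose and 0 fell (4.26% called, beside 6.52% of all distal peaks). The changes of 30 of the 47 lay above 0, with a median of 0.12 against -0.12 over all distal peaks. The first rise lay 79665 bp downstream of the start (chr8:120818179-120818430, intergenic), with 40.6 and 27.1 normalized tags in WT and 124 and 72.4 in SgshKO. Its log2 change was 1.48 ± 0.36 (limma adjusted p = 0.00666). The second lay 31924 bp upstream (chr8:120704316-120704553, intergenic), with 25.9 and 20.3 in WT and 80.5 and 43.6 in SgshKO (log2 change 1.33 ± 0.39, limma adjusted p = 0.0277). At both peaks the first SgshKO library was well above the second, and at both the groups did not overlap.

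The start of Mef2a, a MADS-box factor, carried 486 and 413 normalized tags in WT and 426 and 427 in SgshKO, a log2 change of -0.07 ± 0.25. The SgshKO libraries lay between the WT ones. At the leading Mef2c start WT held 128 and 96.6 normalized tags and SgshKO 95.2 and 99.3 (log2 change -0.19 ± 0.30), again with overlapping groups. A weaker Mef2c start-site peak, 82 bp upstream of another of its starts, had the smallest p of the 27: 18.1 and 16.1 in WT, 5.19 and 7.43 in SgshKO, log2 change -1.32 ± 0.49, limma adjusted p = 0.0931. The most open peak of all members in microglia was a Mef2a distal site 89247 bp upstream, with 686 and 557 in WT and 758 and 669 in SgshKO, and it was not called (log2 change 0.20 ± 0.24).

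Of 26 distal Mef2c peaks 2 fell (7.69%, beside 6.52% of all distal peaks called), both in intron 2 of 10. The changes of 20 of the 26 lay below 0, with a median of -0.72 against -0.12 over all distal peaks. One lay 6089 bp from the nearest start, at 26.8 and 23.7 normalized tags in WT and 5.19 and 9.28 in SgshKO (log2 change -1.72 ± 0.48, limma adjusted p = 0.0198). The other lay at 9178 bp, with 13.8 and 13.6 in WT and 4.33 and 1.86 in SgshKO (log2 change -1.91 ± 0.53, limma adjusted p = 0.0206). For Mef2a, 41 of 51 distal peaks lay below 0 and 1 was called (1.96%). This was an intergenic site 91622 bp upstream whose limma adjusted p was 0.05 to 2 digits and just under the threshold. It had 8.64 and 7.62 in WT and 0 and 4.64 in SgshKO, that is 10, 9, 0 and 5 reads, so counting error weighs heavily on it. The call was kept in 2 of 7 other settings and lost with a pseudocount of 0.5, in-peak, median-of-ratios and quantile scaling and edgeR.

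Runx1, a runt-domain factor that sets up definitive blood lineages, had the most peaks (93) and the most calls (6). All 6 were distal, 7.06% of its distal peaks beside 6.52% of all distal peaks. None of its 8 start-site peaks was called, although all 8 lay below 0. The downstream start held 309 and 242 normalized tags in WT and 205 and 207 in SgshKO, both lower, with a log2 change of -0.41 ± 0.27 and an interval of -0.95 to 0.14. A peak 93 bp from the upstream start held 166 and 119 in WT and 139 and 112 in SgshKO, with overlapping groups. The starts lie 129 kb apart.

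The largest change of any member peak was in the last intron of Runx1 (chr16:92612548-92612785, intron 6 of 6, 84663 bp downstream of the nearest start). It held 12.1 and 11.9 normalized tags in the WT libraries and 203 and 137 in the SgshKO libraries, from 14, 14, 234 and 148 reads. Both SgshKO libraries were far above both WT libraries. The mean rose 14.2-fold, from 12.0 ± 0.17 to 170 ± 46.1 (SD, n = 2), and the log2 change was 3.69 ± 0.36 (SE) with a limma adjusted p of 1.31e-08. It had the 10th smallest p and the 18th largest increase of the 91770 microglia peaks. It was called under every alternative tried, and with each of the 4 libraries left out its adjusted p was at most 9.75e-08. It overlapped no peak of either nuclei table. None of its neighbours was called. At 81056 bp from the start WT held 9.51 and 9.32 normalized tags and SgshKO 3.46 and 5.57, both lower. At 76464 bp WT held 13 and 26.3 and SgshKO 44.1 and 29.7, both higher (log2 change 0.93 ± 0.43). The changes at 99443, 70063 and 58068 bp were 0.74 ± 0.34, 0.62 ± 0.43 and 0.90 ± 0.30.

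The other 5 Runx1 calls fell. At 1435 bp upstream of the downstream start the libraries held 93.3 and 94.9 normalized tags in WT and 41.6 and 41.8 in SgshKO, with close replicates in both groups (log2 change -1.16 ± 0.33, limma adjusted p = 0.0249). An intron 4 peak at 13331 bp went from 57.9 and 53.4 to 16.4 and 21.4 (log2 change -1.52 ± 0.39, limma adjusted p = 0.0112). An intron 3 peak at 6338 bp had 20.7 and 27.1 in WT and 2.6 and 10.2 in SgshKO (log2 change -1.96 ± 0.52). The remaining pair lay upstream of the upstream start, at 2071 bp and 44389 bp, with log2 changes of -1.53 ± 0.49 and -2.10 ± 0.57. Over the locus, 4 of the 5 lay within 15 kb of a start, where many uncalled Runx1 peaks lay as well. The rise lay near the far end of the gene, and no test of position was made.

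**Figure D2:**
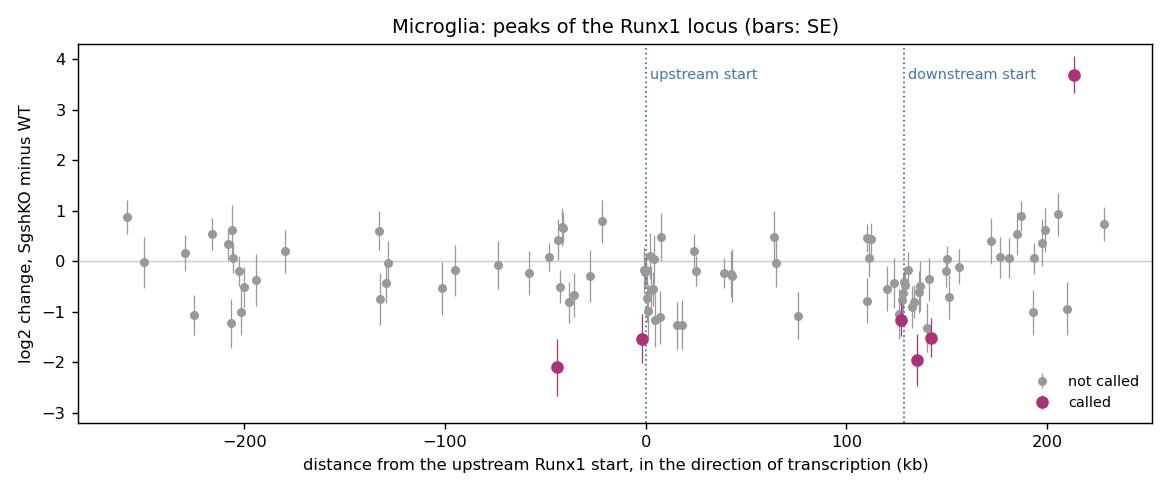
Log2 change (SgshKO minus WT, bars are the SE) of the 93 microglia peaks assigned to Runx1, against the distance in kb from its upstream start in the direction of transcription; filled larger points were called. The peak at 3.69 stands apart in the last intron, and 5 called peaks lie below -1.

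Cebpa, the gene of C/EBP-alpha, held 461 and 329 normalized tags at its leading start-site peak in WT and 424 and 517 in SgshKO (log2 change 0.27 ± 0.26). The groups overlapped, and quantile normalization turned the change to -0.29. Of its 22 distal peaks 1 fell, 30200 bp downstream, from 27.6 and 34.7 to 7.79 and 13.9 (log2 change -1.48 ± 0.45, limma adjusted p = 0.0356). That was 4.55% of them, beside 6.52% of all distal peaks called. Cebpb, induced in inflammation, held 187 and 156 at its start in WT and 151 and 171 in SgshKO (log2 change -0.09 ± 0.28). None of the 7 Cebpb peaks was called. The smallest p among them was at 3654 bp upstream, with 22.5 and 12.7 in WT and 11.2 and 9.28 in SgshKO (limma adjusted p = 0.429).

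Maf, a bZIP factor of resident macrophages, had 114 and 111 normalized tags at its leading start-site peak in WT and 81.4 and 94.7 in SgshKO (log2 change -0.35 ± 0.30). Both SgshKO libraries were lower, without a call. Of 52 distal Maf peaks 1 rose, 308684 bp downstream of the start (chr8:115398091-115398329, intergenic), from 122 and 138 to 325 and 201 (log2 change 0.97 ± 0.29, limma adjusted p = 0.0299). A pair fell. With the rise, 5.77% of the distal Maf peaks were called, beside 6.52% of all distal peaks. At 109090 bp WT held 32.0 and 33.0 normalized tags and SgshKO 11.2 and 8.36 (log2 change -1.65 ± 0.44). At 6930 bp only 10 and 8 reads in WT and 0 and 2 in SgshKO were counted (log2 change -2.36 ± 0.60), among the weakest peaks of the table.

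Among the members' microglia distal peaks, 15 of 300 were called, 4 higher and 11 lower, a share of 5% against 6.52% of all 67964 distal peaks. Higher calls made up 3.8% and lower calls 2.72% of all distal peaks. The members' median change was -0.17, against -0.12 over all distal peaks. Without either WT library only the Runx1 rise was called, beside 1.26% and 0.607% of all microglia peaks without the first or second. Without the first or second SgshKO library 49 or 56 of the 300 were, beside 20.5% and 18% of all peaks. DESeq2 kept 6 of the 15 calls and tested 240 of the 300 peaks. Its own calls were 5 higher and 2 lower, beside 5.76% and 0.589% of all microglia peaks it tested. It ended the calls of Cebpa at 30200 bp, Maf at 109090 bp, Mef2c at 6089 bp and Runx1 at 6338 bp. It gave no adjusted p for Mef2a at 91622 bp upstream, Mef2c at 9178 bp, Maf at 6930 bp and Runx1 at 2071 and 44389 bp upstream. Quantile normalization ended the calls of Mef2a at 91622 bp upstream, of Maf at 308684 and 6930 bp and of Runx1 at 2071 bp upstream. The last was also lost with a pseudocount of 0.5. With tags scaled to those inside peaks 42 were called, 4 higher and 38 lower, beside 4.23% of all distal peaks higher and 11.3% lower. All of the 11 that fell had fewer than 100 normalized tags in each WT library. The rule placed no weight on level, and the 4 that rose had between 11.9 and 138 in WT. The markers listed as blood myeloid summed to 107 and 93.2 normalized tags at start sites in WT microglia and 229 and 125 in SgshKO. Only 3 of the 10 genes (S100a8, Itgal and Mrc1) gave this sum. The others, the monocyte markers Ccr2 and Ly6c2 among them, had no start-site peak. The groups did not overlap in this sum. Its share of the tags inside peaks was 0.00192% and 0.00191% in WT and 0.00339% and 0.00234% in SgshKO. Blood cell content was not tested. Microglia markers summed to 2135 and 1824 in WT and 2417 and 1861 in SgshKO, and overlapped. As a share of the tags inside peaks they made up 0.0383% and 0.0375% in WT and 0.0358% and 0.0347% in SgshKO, where the groups did not overlap. The part of these sums in the changes was not tested.

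**Figure D3:**
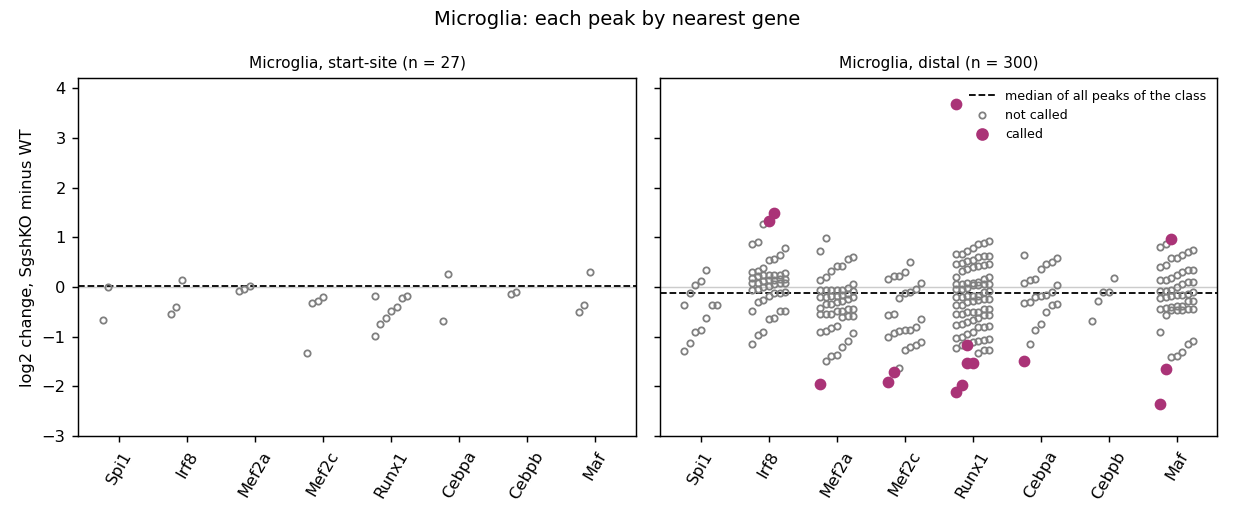
Log2 change (SgshKO minus WT) of each microglia peak by nearest gene, for 27 start-site and 300 distal peaks; filled points were called and the dashed line is the median of all peaks of that class in the table. No start-site peak is called, and the calls among distal peaks lie at both ends of the range.

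**Figure D4:**
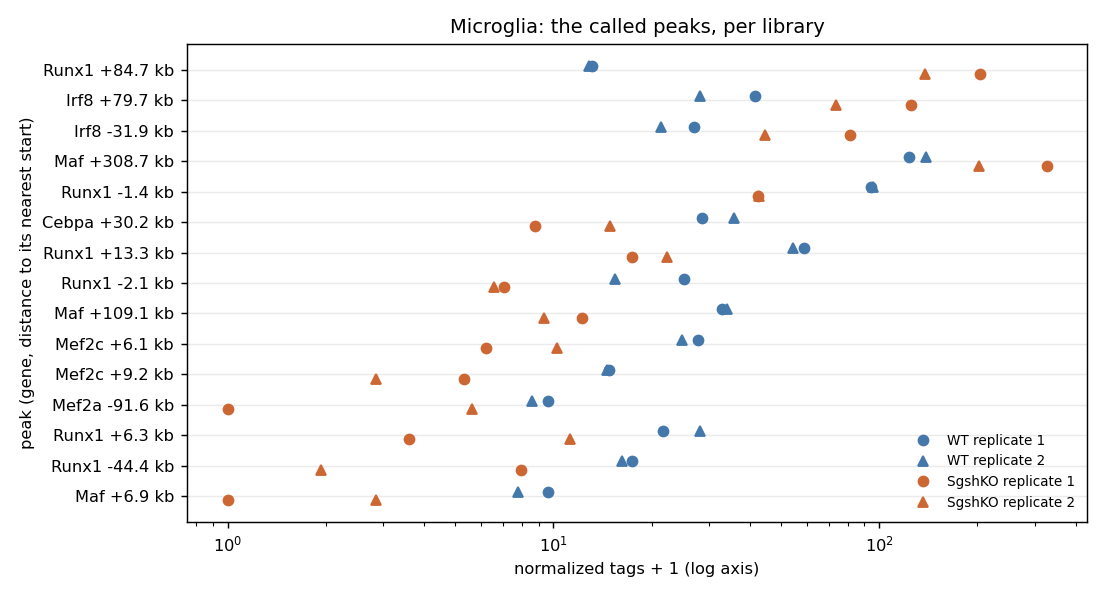
Normalized tags + 1 (log axis) in each of the 4 microglia libraries at the 15 called peaks, ordered by log2 change and named by gene and distance to its nearest start. WT and SgshKO libraries are separated at every one, which the choice of called peaks makes likely. They are also separated at 48.8% of all microglia distal peaks. The Runx1 peak at 84.7 kb shows the widest gap.

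Other genes of the programme were counted as lists. For 24 related factors (further MEF2, RUNX, C/EBP, MAF, IRF and ETS genes, SALL1 and others), 5 of 63 start-site peaks rose and 0 fell in microglia, beside the 8.59% and 1.2% of all start-site peaks. Of their 481 distal peaks 10 rose and 19 fell, with a median of -0.23, beside 3.8% and 2.72% of all distal peaks. For 25 genes that textbooks place under PU.1 and its partners, such as Csf1r, Cx3cr1 and P2ry12, 1 of 43 start-site peaks rose and 2 fell. Of the 314 distal peaks of these target genes 4 rose and 31 fell, and their median change was -0.36, against -0.12 over all distal peaks. These lists were counted for context, and no test was made of them.

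Most member peaks of microglia had no counterpart in the nuclei. Of the 300 distal peaks, 270 (90%) overlapped no peak of either nuclei table, against 72.0% of all microglia distal peaks. Of the 27 start-site peaks it was 13 (48.1%), against 26.2% of all. The nuclei tables held no start-site peak of Spi1 or Runx1, and that of Olig2+ nuclei none of Irf8, Mef2c or Maf either. Microglia were live cells and the nuclei lightly fixed, and each sort had its own set of peaks. A difference of peaks or levels between microglia and nuclei therefore cannot be told apart from the preparation.

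In NeuN+ nuclei, members had 15 start-site and 64 distal peaks, and their start-site peaks were lower in SgshKO as were start-site peaks in general. Of the 15, 9 fell and 0 rose, a share of 60% beside 46.6% of all 23397 start-site peaks called, 1.74% higher and 44.9% lower. Their median change was -0.74, against -0.53 over all start-site peaks. With tags scaled to those inside peaks, 5 of 15 fell, beside 23.5% of all start-site peaks lower. DESeq2 called 1 of the 15, beside 4.55% of all peaks of the table. Without the first or second WT library 3 or 4 were called, beside 10.5% and 13.5% of all peaks, and without either SgshKO library 0, beside 0% of all. Neuron markers at start sites summed to 1104 and 1023 normalized tags in WT and 618 and 620 in SgshKO, and oligodendrocyte, astrocyte and endothelial sums were lower in both SgshKO libraries too. The part of these sums in the changes was not tested.

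Mef2c, a factor of excitatory neurons, had the smallest p of the members in this table. Its leading start-site peak (chr13:83524688-83524941, 71 bp from the start) held 94.0 and 83.6 normalized tags in WT and 32.1 and 43.2 in SgshKO. The groups were far apart, with a log2 change of -1.23 ± 0.17 and a limma adjusted p of 5.22e-05. It kept its call under every alternative except the omission of either SgshKO library, when no peak of the whole table was called. A second Mef2c start-site peak, 270 bp upstream, went from 37.4 and 30.5 to 11.9 and 15.2 (log2 change -1.27 ± 0.24, limma adjusted p = 0.000853). Of the 14 distal Mef2c peaks 4 fell (28.6%), beside 25.2% of all NeuN+ distal peaks called and 12.6% lower. Their log2 changes lay between -1.43 and -0.66, at 5235 bp upstream and at 7405, 18124 and 69805 bp downstream. The weakest, in intron 6 of 10, held 11.3 and 7.91 normalized tags in WT against 4.19 and 1.9 in SgshKO. The strongest, in intron 1, held 35.7 and 44.6 against 23.7 and 26. With tags scaled to those inside peaks the calls at -5235, 7405 and 18124 bp were lost, and those at 71, -270 and 69805 bp were kept.

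Cebpb had 3 calls in NeuN+ nuclei, all at its start. These were all 3 of its start-site peaks, beside 44.9% of all start-site peaks lower, and 0 of its 4 distal peaks were called. At 289 bp in its only exon WT held 30.0 and 45.2 normalized tags and SgshKO 17.4 and 15.9 (log2 change -1.10 ± 0.23). At 9 bp they were 34.0 and 29.9 against 18.1 and 14.6 (log2 change -0.93 ± 0.23), and at 549 bp upstream 19.8 and 16.4 against 11.2 and 5.71 (log2 change -1.07 ± 0.32). The last call was lost with tags scaled to those inside peaks (limma adjusted p = 0.0590) and with quantile normalization (limma adjusted p = 0.0643), and DESeq2 called none of the 3. The Cebpa start fell from 78.7 and 68.9 to 53.0 and 45.7 (log2 change -0.57 ± 0.16, limma adjusted p = 0.0109), a call lost with tags scaled to those inside peaks (limma adjusted p = 0.184). Irf8 had 3 calls, all lower: its leading start-site peak (43.0 and 48.6 in WT, 36.3 and 26.7 in SgshKO, log2 change -0.54 ± 0.20), a weak peak 427 bp upstream and a distal peak at 57798 bp. They were 2 of its 2 start-site peaks and 1 of its 3 distal peaks, beside 44.9% and 12.6% of all such peaks lower. All 3 Irf8 calls were likewise lost with tags scaled to those inside peaks.

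At the Mef2a and Maf leading start-site peaks no change was called in NeuN+ nuclei. The Mef2a peak held 34.5 normalized tags in each WT library against 25.8 and 23.5 in SgshKO (log2 change -0.47 ± 0.20, limma adjusted p = 0.0838). The Maf peak went from 18.7 and 21.5 in WT to 13.3 and 14 in SgshKO (limma adjusted p = 0.119). A further Maf start-site peak in its exon, 426 bp from the start, fell from 18.1 and 18.6 to 8.38 and 6.35 (log2 change -1.22 ± 0.29, limma adjusted p = 0.00461).

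NeuN+ distal member peaks moved both ways, with 16 of 64 called, 9 higher and 7 lower, beside 25.2% of all 84230 distal peaks, 12.6% in each direction. With tags scaled to those inside peaks the split was 16 higher and 2 lower, beside 21.2% and 4.79% of all distal peaks. DESeq2 called 3 of the 64. Without either WT library 6 were called, and without either SgshKO library 0, beside the shares of all peaks given above. Of the 9 that rose, 6 were assigned to Maf and lay 92758 to 624867 bp downstream of it. The farthest 4 were in intron 8 of 8 of Wwox, an oxidoreductase gene that is the neighbour of Maf, so that their Maf label rests on the distance to a start site alone. At 370348 bp WT held 2.27 and 4.52 normalized tags and SgshKO 15.4 and 17.8 (log2 change 2.04 ± 0.35, limma adjusted p = 4e-04). At 372699 bp they were 16.4 and 11.3 against 37.0 and 38.1 (log2 change 1.40 ± 0.24), and at 550511 bp 2.83 and 4.52 against 15.4 and 17.1 (log2 change 1.91 ± 0.34). In all 3 the groups were well apart, though the outer ones rest on 4 to 8 reads in each WT library. A Maf peak at 109173 bp fell (10.8 and 13.6 to 4.89 and 5.71, log2 change -1.06 ± 0.33), a call lost under in-peak scaling. It overlaps the microglia peak at 109090 bp that also fell.

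Of the remaining NeuN+ distal calls, Runx1 had 2 that rose among its 7 distal peaks, beside 12.6% of all distal peaks higher. They lay at 22549 bp upstream (3.97 and 2.26 to 10.5 and 10.2, log2 change 1.49 ± 0.37) and 171742 bp upstream (10.2 and 15.2 to 23 and 26, log2 change 0.92 ± 0.26). Mef2a had 1 that rose among its 12 distal peaks, 42138 bp upstream (3.97 and 8.47 to 16.1 and 14, log2 change 1.22 ± 0.34). The intron 2 site of Spi1, here at 4905 bp, fell from 34.0 and 35.6 to 18.9 and 17.1 (log2 change -0.91 ± 0.21, limma adjusted p = 0.0043). The nuclei had been sorted without PU.1, the product of this gene.

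**Figure D5:**
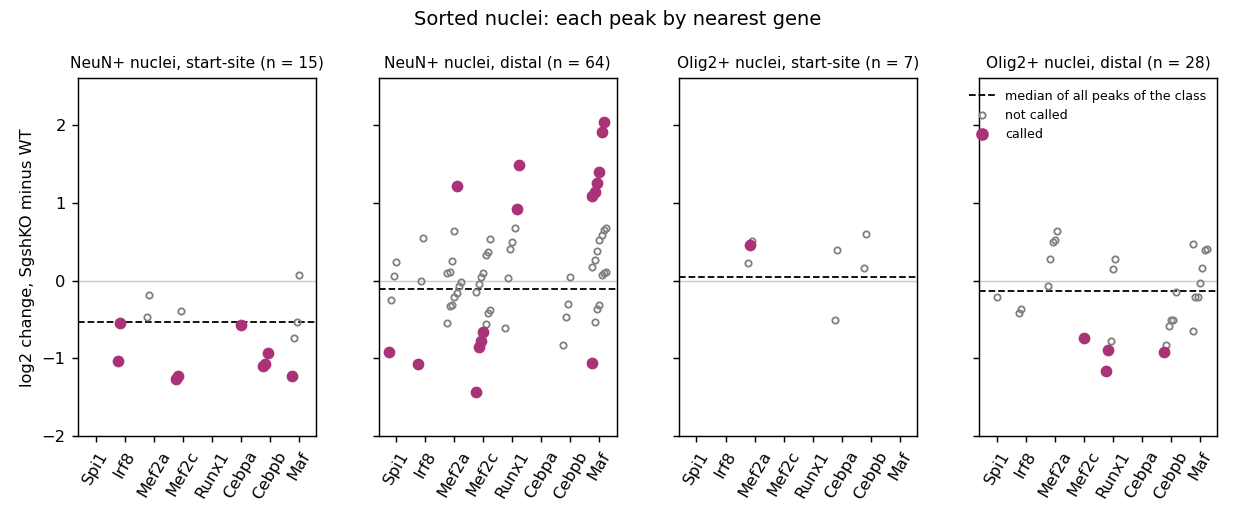
Log2 change (SgshKO minus WT) of each member peak in NeuN+ and Olig2+ nuclei by nearest gene, start-site and distal apart; filled points were called and the dashed line is the median of all peaks of the class. In NeuN+ nuclei the start-site line itself lies at -0.53, and the called increases reach 2.04, at a Maf peak.

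In Olig2+ nuclei only 35 peaks belonged to the members. Of 7 start-site peaks 1 rose, beside 20.3% of all 20120 start-site peaks called, 12.7% higher and 7.56% lower. It was the leading Mef2a peak, 19 bp from the start, with 61.7 and 63.9 normalized tags in WT and 76.8 and 97.7 in SgshKO (log2 change 0.46 ± 0.15, limma adjusted p = 0.0283). The groups did not overlap, but the call was lost without either WT library, without the second SgshKO library and with DESeq2. Cebpa at its start had 43.0 and 38.9 in WT and 26.4 and 30.6 in SgshKO (log2 change -0.51 ± 0.20, limma adjusted p = 0.0673), and Cebpb 10.4 and 9.20 in WT and 14.8 and 15.9 in SgshKO (log2 change 0.60 ± 0.29, limma adjusted p = 0.145). Neither was called. The groups were apart in both, as they were at 60.9% of all Olig2+ start-site peaks.

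Of 28 distal peaks in Olig2+ nuclei 4 fell and 0 rose, beside 19.7% of all 62457 distal peaks called, 6.7% higher and 13% lower. Leaving out 1 library gave 1 to 7 calls, beside 7.47% and 7.37% of all peaks of the table without the first or second WT library and 18.8% and 18.9% without the first or second SgshKO library. The single Mef2c peak, 341091 bp upstream, held 87.7 and 89.0 normalized tags in WT and 49.8 and 55.8 in SgshKO (log2 change -0.73 ± 0.15, limma adjusted p = 0.000742). It was called under every alternative and with each library left out. The first of 2 Runx1 calls, 165554 bp upstream, went from 73.1 and 59.3 to 38.1 and 31.9 (log2 change -0.90 ± 0.18, limma adjusted p = 0.000583). Its adjusted p was 0.0548 without the first WT library. The other, 173410 bp upstream, was weak (6.74 and 8.69 to 2.46 and 3.32). A Cebpb peak 3674 bp upstream fell from 20.2 and 15.3 to 11.7 and 6.65 (log2 change -0.92 ± 0.31, limma adjusted p = 0.0342), a call lost with quantile normalization and edgeR. Irf8, Maf and Spi1 had no call. A Maf peak 346659 bp upstream was just above the threshold, with 69.5 and 61.4 in WT and 91.6 and 81.1 in SgshKO, both higher (log2 change 0.40 ± 0.14, limma adjusted p = 0.0503). The Irf8 peak with the smallest p, at 82948 bp, had 14 and 9.20 against 7.99 and 8.64 (log2 change -0.41 ± 0.32, limma adjusted p = 0.388). At the intron 2 site of Spi1 the values were 22.3 and 23.5 against 17.2 and 22.6. Oligodendrocyte markers at start sites summed to 3418 and 3424 normalized tags in WT and 2831 and 2866 in SgshKO. Other lists were higher in both SgshKO libraries: precursor markers summed to 955 and 940 in WT and 1007 and 982 in SgshKO, neuron markers (4 of 10 genes with a peak) to 42.5 and 51.6 against 60.3 and 59.2, astrocyte markers (2 of 8) to 20.8 and 25.6 against 26.4 and 27.2, and endothelial markers (1 of 7) to 3.63 and 2.56 against 8.61 and 10.6. No blood myeloid marker had a start-site peak. The part of these sums in the changes was not tested.

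Whether a genotype effect differed between sorts was tested in 1 model of all 12 libraries, on peaks that matched one-to-one in the 3 tables. This model shares 1 estimate of the spread per peak over the sorts, although the SgshKO microglia libraries differed most from each other. Its SE therefore differ from those of the single tables. Microglia and nuclei were also prepared differently, which the model cannot separate from the sort. At the Cebpa start in microglia the SE was 0.18 here and 0.26 in the microglia table alone. Of 16761 such peaks, 8 were members: 4 of Cebpb, and 1 each of Spi1, Irf8, Cebpa and Mef2a. Among their 24 differences 4 passed. Of all matched peaks, 42.5% passed between microglia and NeuN+ nuclei, 21.6% between microglia and Olig2+ nuclei and 31.7% between the nuclei sorts. Beside these stood 2, 1 and 1 of the 8 member peaks, so no share of the members stood above the background. The median difference over all matched peaks was 0.60 for microglia minus NeuN+ nuclei and 0.17 for microglia minus Olig2+ nuclei. For NeuN+ minus Olig2+ nuclei it was -0.50. The Cebpa start differed between microglia (0.27 ± 0.18) and NeuN+ nuclei (-0.57 ± 0.18), by 0.84 ± 0.25 (limma adjusted p = 0.00989), and between microglia and Olig2+ nuclei (-0.51 ± 0.18), by 0.78 ± 0.25 (limma adjusted p = 0.0309). The Cebpb start differed between NeuN+ (-0.93 ± 0.23) and Olig2+ nuclei (0.60 ± 0.23), by -1.53 ± 0.32 (limma adjusted p = 0.0014), and between microglia (-0.09 ± 0.23) and NeuN+ nuclei, by 0.84 ± 0.32 (limma adjusted p = 0.0398). With tags scaled to those inside peaks, or with quantile normalization, the differences of Cebpa and the one of Cebpb between microglia and NeuN+ nuclei were lost. The Cebpb difference between the nuclei sorts was kept in all 17 alternatives in which the peak was matched and tested. Without the second WT microglia library 1 of the 4 differences was left, and without the first WT or the second SgshKO library of NeuN+ nuclei 2 were. The intron 2 site of Spi1 did not pass in any pair: its changes were -1.12 ± 0.26, -0.91 ± 0.26 and -0.20 ± 0.26 in microglia, NeuN+ and Olig2+ nuclei, and the smallest adjusted p was 0.0803. Maf, Mef2c and Runx1 had no peak matched in all 3 tables, so the Runx1 rise in microglia was not compared between sorts.

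For the 3 members with a matched start-site peak, the genes with the most similar profile over the 12 libraries were named from 8671 genes. They were Mta2, Adam17 and Mboat1 for Mef2a (Pearson r 0.977, 0.970 and 0.969), Pitrm1, Fuca2 and Btd for Cebpa (0.992, 0.992 and 0.990), and Kctd12, Dusp6 and C1ql4 for Cebpb (0.994, 0.992 and 0.992). These values are descriptions over 12 libraries of 3 sorts, and the points share sort and library.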

How the data were processed

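The deposited files are 1 table of merged peaks per sort, made by the authors with HOMER; Bowtie2 and HOMER, and build mm10, are named in the submitters' processing notes without version or role. The deposited signal is tags per peak and library, scaled per the file headers so that the library total equals 10000000. Undoing that scaling gave whole reads (within 0.01) for 100% of values. Each of the 12 tag columns was matched to its library by title, with 0 left unused. The aligner settings, read shifting, duplicate handling and peak caller settings were not found in the labels or file headers (not given in the sources used here).

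For each sort, limma 3.58.1 (R 4.3.3; trend, two-sided tests, genotype as the only term) was fitted to log2 of normalized tags plus 1, on every peak. A call needs a p under 0.05 after Benjamini-Hochberg adjustment over all peaks of that table. The added 1 shrinks the fold changes of weak peaks. Each ± after a log2 change is an SE. Member peaks were found by gene symbol, and Entrez numbers gave the same peaks. Peaks overlap where they share at least 1 bp (bedtools 2.31.1). Peaks matched across tables by one-to-one reciprocal overlap of 50% entered 1 limma model of 12 libraries. In each table the text names each gene's leading start-site peak, its called peaks (above 6, the 3 smallest p per direction) and, with no call, its smallest-p peak. Other peaks named were chosen after their values were seen. The members, lists and rules were chosen with earlier results of these data known. Alternatives were pseudocounts of 0.5 and 5, the lowest 25% of peaks left out, in-peak, median-of-ratios and quantile scaling, edgeR 4.0.16 (TMM) and DESeq2 1.42.0 on the recovered reads, a replicate block, a threshold of 0.01, a start-site window of 500 bp, overlaps of 25% and 75%, and leaving out each library. The fits were tested on simulated data. Same-numbered libraries did not deviate together. Peak sequences were not analysed here. One marker list in Olig2+ nuclei is not reported here.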

Additional observations from a re-analysis of the deposited data

Results flagged for a closer look

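The test of the genotype effect between sorts picked out 4 differences at 2 matched start-site peaks. Of all 16761 matched peaks, 42.5% passed between microglia and NeuN+ nuclei, 21.6% between microglia and Olig2+ nuclei and 31.7% between the nuclei sorts. The median differences over all matched peaks were 0.60, 0.17 and, for NeuN+ minus Olig2+ nuclei, -0.50. At the Cebpa start the log2 change in microglia exceeded that in NeuN+ nuclei by 0.84 (limma adjusted p = 0.00989) and that in Olig2+ nuclei by 0.78 (limma adjusted p = 0.0309). At the Cebpb start the change in microglia exceeded that in NeuN+ nuclei by 0.84 (limma adjusted p = 0.0398), and the change in NeuN+ nuclei minus that in Olig2+ nuclei was -1.53 (limma adjusted p = 0.0014). The last was kept in all 17 alternatives with a value, and the others in 12, 10 and 10 of 17.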

How the results depend on the processing

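The share of all peaks called changed with the setting as well. In microglia it was 7.37% in the main fit, 7.42% with the lowest 25% of peaks left out and 15.8% with in-peak scaling. It was 13% with median-of-ratios scaling, 11.4% with quantile normalization and 15.5% with edgeR. DESeq2 gave 6.35%, the replicate block 15.8% and the threshold of 0.01 gave 2.97%. Counts of called member peaks that moved by over 1.5 times were as follows. Microglia start-site peaks went from 0 to 4 with in-peak scaling, 3 with quantile normalization, 1 with edgeR, 1 with the replicate block, and 0 to 2 on leaving out 1 library. Microglia distal peaks went from 15 to 8 with the lowest 25% of peaks left out, 42 with in-peak scaling, 24 with median-of-ratios scaling, 25 with quantile normalization, 39 with edgeR, 7 with DESeq2, 32 with the replicate block, 2 at a threshold of 0.01, and 1 to 56 on leaving out 1 library. NeuN+ start-site peaks went from 9 to 5 with in-peak scaling, 5 with quantile normalization, 1 with DESeq2, 5 at a threshold of 0.01 and 0 to 4 on leaving out 1 library. NeuN+ distal peaks went from 16 to 9 with quantile normalization, 3 with DESeq2, 6 at a threshold of 0.01 and 0 to 6 on leaving out 1 library. Without either SgshKO NeuN+ library, 0 peaks of the whole table were called by limma, with 33265 and 32556 at an unadjusted p under 0.05; no other tool was run on those 3 libraries, and the lone library is assumed to vary like the other group. Olig2+ start-site peaks went from 1 to 0 with DESeq2, 0 at a threshold of 0.01 and 0 to 1 on leaving out 1 library, and Olig2+ distal peaks from 4 to 2 with DESeq2, 2 at a threshold of 0.01 and 1 to 7 on leaving out 1 library. The 4 differences between sorts became 0 at an overlap of 75%, where 2 member peaks were matched, and 1 to 5 on leaving out 1 library. Over all NeuN+ peaks, 29.8% were called in the main fit, 26.5% with in-peak scaling and 15.5% with quantile normalization. DESeq2 called 4.55% of them, and 14.6% passed at a threshold of 0.01. Over all Olig2+ peaks the share was 19.8%, with 8.6% by DESeq2 and 9% at a threshold of 0.01. The causes of the other moves were not tested. Of the 15 microglia calls, 1 was kept with each library left out in turn, of 25 in NeuN+ nuclei 0 and of 5 in Olig2+ nuclei 1. Reversed directions were seen at uncalled microglia start-site peaks alone among the named peaks. Cebpa at -179 bp became -0.29 with quantile normalization, and Spi1 at 96 bp 0.055 with median-of-ratios scaling, 0.0391 with edgeR and 0.0548 with DESeq2. On leaving out 1 library the ranges were -0.19 to 0.19 for Spi1 at 96 bp, -0.22 to 0.041 for Cebpb at 48 bp, -0.19 to 0.045 for Mef2a at -397 bp and -0.39 to 0.010 for Mef2c at 203 bp. Replicate numbers share only a number: same-numbered libraries correlated in their deviations from the group means at 0.042, 0.0036 and 0.00069 in microglia, NeuN+ and Olig2+ nuclei, and a block on that number kept the NeuN+ counts (9 and 16) and the Olig2+ start-site count (1), with 5 Olig2+ distal calls and 5 differences between sorts. Depth limits the weakest peaks, where 10 reads or fewer were counted per library.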
